A study of Mus musculus with 9 samples.

Results

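The genes described here are 36 targets and regulators of the hypoxia-inducible factors (HIFs), among them the enzymes of glycolysis, measured by RNA sequencing in mouse hepatoma cells. A gene belonged to the set when its symbol in the deposited transcript tables equalled one of 36 names, and the transcript with the highest mean count over 9 libraries stood for each gene. All 36 were found, of 28250 gene IDs in the tables, 17767 of which had a count. The source of the RNA is given as Hepa 1 WT cells, a hepatoma line, while the cell line label reads HC1C. Total RNA came from 3 control libraries, 3 libraries of cells given 10 nM FICZ and 3 of cells given 50 uM tryptamine, all after 6 h. Since one label calls the controls untreated and the protocol speaks of a vehicle, they are called control. No group carries a genetic change by its labels. FICZ is a tryptophan photoproduct and high-affinity ligand of the aryl hydrocarbon receptor (AhR), and tryptamine is a tryptophan-derived amine that the series title calls a proligand of that receptor, acting through monoamine oxidases. Whether replicates came from separate cultures is not labelled, so p-values measure only the spread between these libraries.

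A HIF is a pair of proteins, an alpha subunit encoded by Hif1a or Epas1 and the constant partner Arnt. Prolyl hydroxylases (the Egln genes) mark the alpha subunit when oxygen is present, and the Vhl protein then directs it to degradation, so that HIF is controlled mainly through protein stability and not through the message. The AhR pairs with the same Arnt protein after it binds a ligand, and the comparison asks whether ligand use of that shared partner goes with altered levels of HIF targets. In liver and hepatoma cells HIF is known for raising glucose uptake, glycolysis and the secretion of Vegfa, the growth factor for blood vessels.

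The core that HIF binds with Arnt is ACGTG or GCGTG, and GCGTG is also the core that the AhR binds with Arnt. These letters were therefore searched, on both strands, in the 250 bases before each start site listed by RefSeq on GRCm38.p6. Windows were found for 33 members (51 windows in all), and the entries for Epas1, Bnip3l and Ndrg1 were missing. ACGTG occurred in 24 of the 51 windows, in 20 of the 33 genes, against 16.6% of 32851 windows of all genes. GCGTG occurred in 27 of the 51 windows, in 22 genes, against 28.2% of all windows. The palindrome CACGTG, which holds ACGTG on both strands, occurred in 5 of the 51 windows against 6.02% of all. The windows below are all those of Pfkfb3, Egln3 and Ddit4, whose values the results turn on, and of the markers Pgk1, Ldha and Vegfa, with every ACGTG or GCGTG of either strand in capitals (CACGT and CACGC on the strand printed).
Pfkfb3, chr2:11553930-11554179, minus strand: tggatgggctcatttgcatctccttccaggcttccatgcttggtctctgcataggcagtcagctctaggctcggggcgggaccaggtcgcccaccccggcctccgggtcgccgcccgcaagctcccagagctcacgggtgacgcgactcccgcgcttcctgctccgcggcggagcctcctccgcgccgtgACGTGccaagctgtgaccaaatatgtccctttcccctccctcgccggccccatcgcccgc
Pfkfb3, chr2:11502091-11502340, minus strand: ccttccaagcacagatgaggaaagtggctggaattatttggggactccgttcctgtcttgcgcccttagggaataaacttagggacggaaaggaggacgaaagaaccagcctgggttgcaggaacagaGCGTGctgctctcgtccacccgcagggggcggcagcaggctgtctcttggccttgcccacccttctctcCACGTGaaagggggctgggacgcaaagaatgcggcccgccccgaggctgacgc
Egln3, chr12:54203875-54204124, minus strand: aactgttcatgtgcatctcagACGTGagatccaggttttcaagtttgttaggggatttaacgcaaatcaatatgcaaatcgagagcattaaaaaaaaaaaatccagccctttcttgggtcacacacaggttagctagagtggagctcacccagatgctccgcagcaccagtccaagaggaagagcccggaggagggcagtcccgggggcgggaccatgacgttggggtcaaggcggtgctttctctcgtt
Ddit4, chr10:59951771-59952020, minus strand: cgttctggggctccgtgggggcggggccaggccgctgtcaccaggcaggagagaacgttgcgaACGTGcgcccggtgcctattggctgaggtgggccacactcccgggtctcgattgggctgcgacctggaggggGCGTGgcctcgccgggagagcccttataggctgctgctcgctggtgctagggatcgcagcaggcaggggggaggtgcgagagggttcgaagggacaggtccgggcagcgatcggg
Pgk1, chrX:106186850-106187099, plus strand: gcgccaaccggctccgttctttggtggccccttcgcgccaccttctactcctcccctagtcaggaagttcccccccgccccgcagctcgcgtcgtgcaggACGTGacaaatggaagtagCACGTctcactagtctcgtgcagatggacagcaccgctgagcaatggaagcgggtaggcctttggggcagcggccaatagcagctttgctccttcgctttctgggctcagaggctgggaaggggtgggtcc
Ldha, chr7:46845554-46845803, plus strand: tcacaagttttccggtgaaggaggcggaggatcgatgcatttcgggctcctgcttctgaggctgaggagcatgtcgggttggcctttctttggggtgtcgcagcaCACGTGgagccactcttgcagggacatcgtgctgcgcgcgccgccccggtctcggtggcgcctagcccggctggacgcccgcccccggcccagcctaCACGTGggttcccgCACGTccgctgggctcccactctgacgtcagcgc
Ldha, chr7:46846832-46847081, plus strand: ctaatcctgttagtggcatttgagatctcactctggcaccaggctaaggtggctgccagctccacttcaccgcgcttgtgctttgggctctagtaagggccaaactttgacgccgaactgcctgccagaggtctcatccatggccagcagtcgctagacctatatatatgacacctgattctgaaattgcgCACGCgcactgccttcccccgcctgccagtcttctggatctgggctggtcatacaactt
Vegfa, chr17:46032378-46032627, minus strand: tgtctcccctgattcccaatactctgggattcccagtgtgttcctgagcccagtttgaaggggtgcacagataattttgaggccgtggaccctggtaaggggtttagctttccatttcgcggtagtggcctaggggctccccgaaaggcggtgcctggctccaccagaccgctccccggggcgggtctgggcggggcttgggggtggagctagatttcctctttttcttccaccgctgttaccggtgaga
Vegfa, chr17:46025164-46025413, minus strand: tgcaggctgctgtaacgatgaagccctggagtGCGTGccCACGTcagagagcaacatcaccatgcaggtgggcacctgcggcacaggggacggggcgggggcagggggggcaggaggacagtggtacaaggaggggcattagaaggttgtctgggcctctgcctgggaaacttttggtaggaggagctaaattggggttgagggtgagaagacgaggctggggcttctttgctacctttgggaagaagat
The capitals in the Pfkfb3 windows lie 60 bases before the first start, and 122 and 53 bases before the other. Ldha, the most abundant member, has 3 separate stretches in capitals in its first window, of which the first and second are CACGTG, and 1, of GCGTG on the other strand, in the second window. Vegfa has none in its first window. Its second window lies downstream of its first start, so the capitals there lie within the gene as read from that start. Such windows can hold transcribed or coding sequence. A match describes letters and not a bound site.

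Total counts over genes were between 11638752 and 16749667 per library, and 34 of the 36 members passed the filter on low counts together with 12334 genes in all. Control replicate 3 stood apart: its log CPM (counts scaled to a common library size) correlated with the other 8 libraries at 0.954 to 0.960, while the lowest correlation among those was 0.987. Against the mean of the other controls it was high for short transcripts (median log2 difference 0.48 over 2607 genes of up to 2000 nt) and low for long ones (-0.52 over 3256 genes over 4000 nt). Among the members the same medians were 0.23 over 9 genes and -0.28 over 8 genes. The Pearson correlation of this difference with log2 length was -0.14 over 30 members and -0.64 over 9995 genes. Hif1a (1451 nt, -2.18) and Pfkp (4145 nt, 0.63) went against the trend. A value as far out as that of Hif1a weighs heavily on a correlation over 30 members. The -0.14 therefore does not show that the other members followed the trend less closely. The log2 changes printed for a gene are also given without this library where it moved them by over 1.5 times or turned their sign. Cyp1a1, the most used readout of the AhR, was at 55.3 to 63.7 CPM in control, 949 to 1033 with FICZ and 673 to 752 with tryptamine, and it rose in both (edgeR's quasi-likelihood test, log2 4.08, adjusted p = 5.08e-09, and log2 3.57, adjusted p = 1.68e-08). Of the hepatocyte and hepatoma markers looked at, Alb (mean 229 CPM), Afp (135 CPM), Foxa2 (34.1 CPM), Apoe and Apoa2 passed the filter, while Ttr, Apoa1, Apob, Apoc3, Hnf4a and Ahsg had 0 counts in every library. Summed over the 5 named first, they were at 389 to 548 CPM in control, 357 to 378 with FICZ and 365 to 407 with tryptamine, and their part in any member's value was not tested.

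No member passed in any comparison with edgeR's quasi-likelihood test at an adjusted p under 0.05, fitted to all 12334 genes. With FICZ, 0 of 34 members rose, where 14 genes in all did (0.114%), and 0 members fell, as did 0 of all genes. With tryptamine, 0 members rose against 1 gene in all (0.00811%), which was Cyp1a1, and 0 fell. Between FICZ and tryptamine, 0 members and 0 genes passed in either direction. At an unadjusted p under 0.05, the FICZ comparison had 3 members higher (Pfkfb3, Ndrg1 and Egln3, against 3.53% of all genes) and 1 lower (Egln1, against 4.65%). The tryptamine comparison had 2 higher (Pfkfb3 and Egln3, against 2.19%) and 0 lower (against 2.93%), and FICZ against tryptamine had 1 higher (Ankrd37, against 0.705%) and 0 lower (against 1.02%). DESeq2's Wald test called 0 members in each comparison. It was run without the filter on 18207 genes and combined loci with a count, so its shares have another base than edgeR's. Of these it called 0.242% higher and 0.033% lower with FICZ, and 0.0384% higher and 0 lower in each of the other comparisons. Without control replicate 3, edgeR also called 0 members, against 0.576% of all genes higher and 0.24% lower with FICZ, 0.184% and 0.016% with tryptamine, and 0.12% and 0.016% between the compounds. limma's voom with library weights, which gave control replicate 3 a weight of 0.0776 where the others had 0.762 to 2.17, called 3 members higher with FICZ (Pfkfb3, Ndrg1 and Ddit4, against 0.641% of all genes), 0 lower (against 0.284%) and 0 in the other comparisons (tryptamine, 0.154% of all genes higher and 0 lower, and between the compounds 0.13% and 0.0162%). In bulk RNA, fewer cells of a type and less RNA per cell cannot be told apart.

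**Figure D1:**
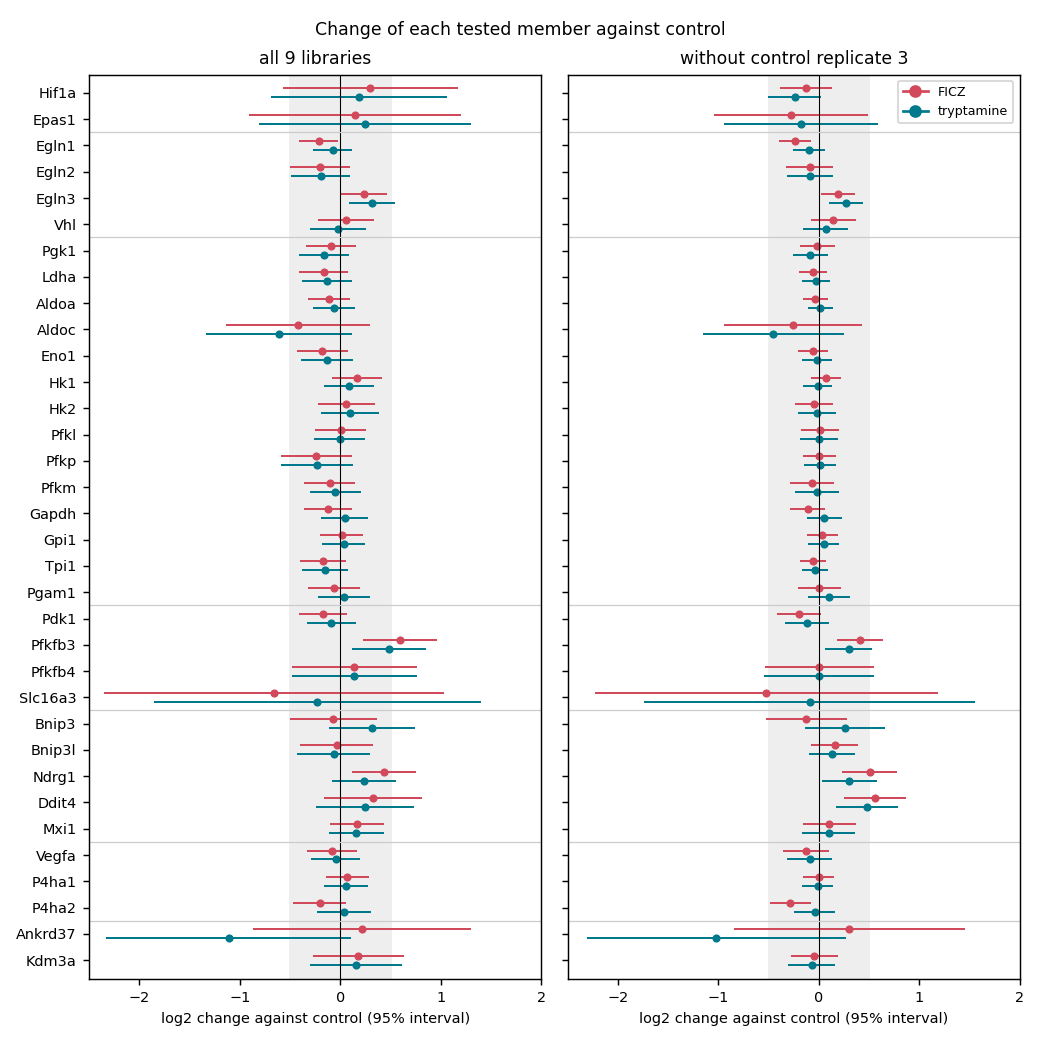
Log2 change of the 34 tested members with FICZ (red) and tryptamine (teal) against control, as points with 95% intervals from edgeR, from all 9 libraries (left) and without control replicate 3 (right); the grey band marks 0.5 on either side of 0. In the right panel most intervals of the glycolytic enzymes are narrower. The FICZ and tryptamine intervals of Pfkfb3, Ndrg1, Ddit4 and Egln3 lie above 0 there, and the FICZ intervals of Egln1 and P4ha2 lie below 0.

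The intervals show how large a change these libraries could have held. With FICZ, the 95% interval lay wholly within 0.5 of 0 on the log2 scale for 23 of 34 members, against 41.4% of all genes, and within 1 of 0 for 29, against 82.2%. With tryptamine these numbers were 21 members (43.4% of all genes) and 29 (83%), and between FICZ and tryptamine 25 (56%) and 31 (86.7%). Without control replicate 3, 25 members with FICZ and 25 with tryptamine lay within 0.5, where 65.9% and 67.7% of all genes did, and 29 lay within 0.5 between the compounds (71.8%). Intervals tend to be narrower for genes with more counts, and the members were not set against genes of like level. These shares therefore do not show that the members were steadier than such genes. The median log2 change of the members was -0.05 with FICZ, 0.01 with tryptamine and -0.01 between them, beside -0.01, 0.00 and -0.00 over all genes tested, and without control replicate 3 it was -0.04, -0.01 and -0.01. The comparisons with control share the same 3 control libraries, so their values are given side by side only.

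Groups whose libraries did not overlap were counted as well. With FICZ, 4 members lay above every control library (Pfkfb3, Egln3, Ndrg1 and Mxi1), where 8.2% of all genes did, and 4 lay below (Aldoc, Pdk1, Egln1 and Egln2), where 7.41% did. With tryptamine, Pfkfb3 and Egln3 lay above (against 5.2% of all genes) and Pdk1 below (against 4.89%). FICZ exceeded tryptamine without overlap in Pfkfb3 (against 5.51%), and Egln1 and P4ha2 were below it (against 5.85%). Against the other control libraries alone, 6 members were above with FICZ (13.8% of all genes) and 7 below (14.1%), and with tryptamine 3 were above (10.2%) and 4 below (9.9%).

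The HIF subunits come first. Hif1a (gene ID 15251), the oxygen-regulated alpha subunit, was read by the rule from a partial transcript of 1451 nt with 7 exons. Its CPM was 25.6, 25.5 and 5.62 in control, 22.6, 22.3 and 25.3 with FICZ, and 20.3, 23.2 and 21.4 with tryptamine. Control replicate 3 lay far below the other 8 libraries, which all fell between 20.3 and 25.6 CPM. The log2 change was 0.30 (95% interval -0.56 to 1.16, adjusted p = 0.752) with FICZ and 0.19 (-0.68 to 1.05, adjusted p = 0.866) with tryptamine. Without that library both changed sign, to -0.12 (-0.37 to 0.12, adjusted p = 0.796) and -0.24 (-0.49 to 0.01, adjusted p = 0.786), and both treated groups then lay below both controls.

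Most Hif1a transcripts are listed under a combined locus named Hif1a/Gm5068, whose counts are not given for each gene apart. The top transcript of that locus, 4751 nt with 15 exons, was at 382, 360 and 251 CPM in control, 343, 368 and 382 with FICZ, and 356, 326 and 403 with tryptamine. With FICZ its log2 change was 0.14 ± 0.148 (SE, adjusted p = 0.704), with tryptamine 0.13 ± 0.148 (SE, adjusted p = 0.767), and the groups overlapped. Without control replicate 3 these were -0.03 (95% interval -0.18 to 0.13) and -0.04 (-0.19 to 0.11).

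Epas1 (gene ID 13819), the other alpha subunit, was close to the filter. It was at 1.82, 2.68 and 0.425 CPM in control, 1.63, 2.20 and 1.71 with FICZ, and 2.31, 1.85 and 1.80 with tryptamine, from 5 to 39 counts a library. The groups overlapped, with a log2 change of 0.14 (95% interval -0.90 to 1.19) with FICZ and 0.25 (-0.80 to 1.29) with tryptamine. Leaving out control replicate 3 turned both signs, to -0.28 (-1.04 to 0.48) and -0.18 (-0.94 to 0.58). Arnt (gene ID 11863), the shared partner, was at 68.9, 60.5 and 48.8 CPM in control, 71.2, 61.1 and 68.8 with FICZ, and 67.1, 69.8 and 57.3 with tryptamine. Its groups overlapped too, with a log2 change of 0.17 (95% interval -0.14 to 0.48, adjusted p = 0.637) with FICZ and 0.12 (-0.19 to 0.43, adjusted p = 0.761) with tryptamine. Control replicate 3 was the lowest of the 9 libraries for Arnt, and without it these were 0.05 (-0.16 to 0.25) and -0.00 (-0.21 to 0.20).

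**Figure D2:**
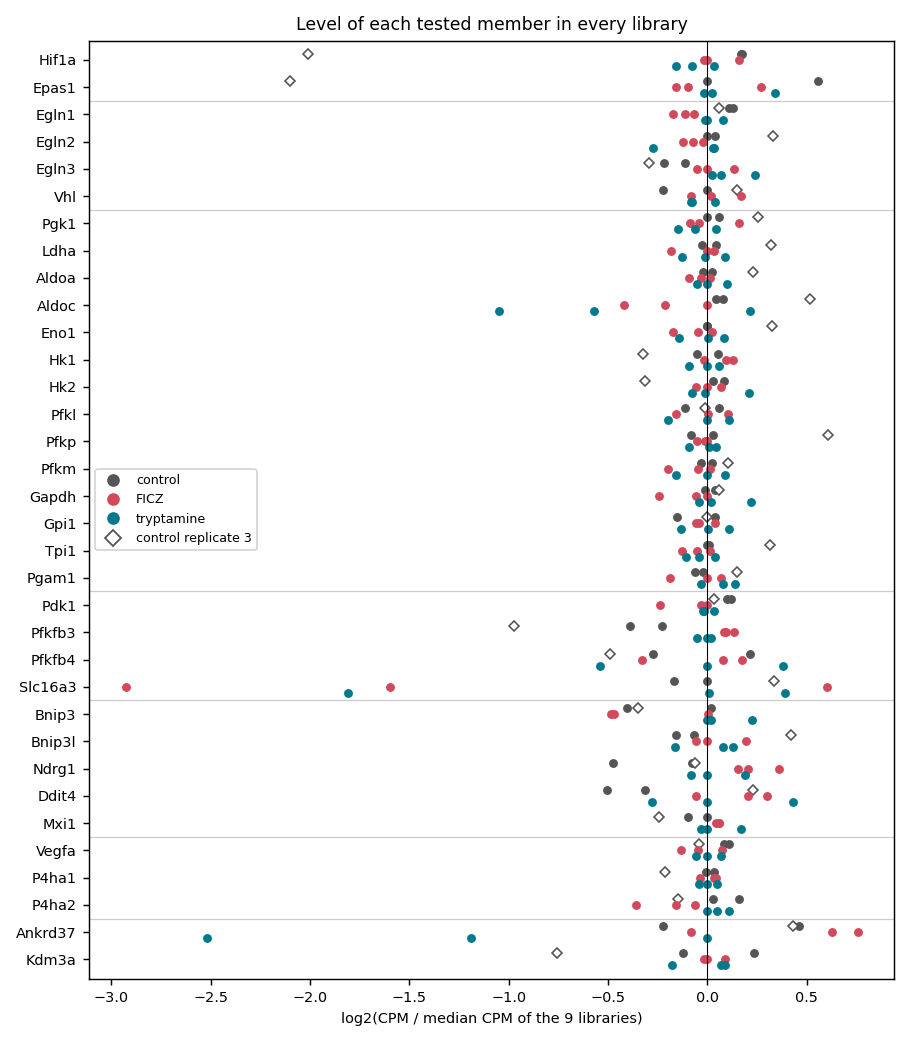
Level of each tested member in every library, as log2 of its CPM over the median CPM of the 9 libraries, with control in grey, FICZ in red, tryptamine in teal and control replicate 3 as an open diamond; lines part the groups of roles. Control replicate 3 is the lowest of the 9 libraries in 9 members and the highest in 11, and the FICZ libraries of Pfkfb3 and Ndrg1 lie to the right of every control.

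The oxygen sensors are the 3 prolyl hydroxylases and Vhl. Egln3 (gene ID 112407), the hydroxylase that is itself a strong HIF target, was at 147, 158 and 140 CPM in control, 188, 165 and 171 with FICZ, and 179, 202 and 174 with tryptamine. Every treated library was above every control, and the FICZ and tryptamine groups overlapped. FICZ gave a log2 change of 0.23 ± 0.0996 (SE, 1.18-fold, adjusted p = 0.601) and tryptamine one of 0.32 ± 0.0996 (SE, 1.25-fold, adjusted p = 0.737). Without control replicate 3 these were 0.19 (adjusted p = 0.372) and 0.27 (adjusted p = 0.316).

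Egln1 (gene ID 112405), the main hydroxylase that limits HIF in normal oxygen, was lower with FICZ than in any other library. It stood at 138, 141 and 134 CPM in control, 114, 122 and 119 with FICZ, and 135, 128 and 128 with tryptamine. The FICZ libraries lay below all libraries of both other groups, and tryptamine overlapped control. The log2 change with FICZ was -0.22 ± 0.0851 (SE, 95% interval -0.40 to -0.03, adjusted p = 0.601), with tryptamine -0.08 (adjusted p = 0.757), and between FICZ and tryptamine -0.14 (-0.33 to 0.05). Control replicate 3 lay close to the other controls here, and without it the FICZ change was -0.24 (adjusted p = 0.160).

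Egln2 (gene ID 112406), the third hydroxylase, was at 42.7, 43.8 and 53.7 CPM in control, 42.0, 39.2 and 40.6 with FICZ, and 43.5, 43.7 and 35.3 with tryptamine. FICZ lay below control without overlap, though the highest FICZ library nearly met the lowest control. The log2 change was -0.20 (adjusted p = 0.604) with all libraries and -0.09 (adjusted p = 0.840) without control replicate 3, the highest of the 9. Vhl, the substrate receptor of the ubiquitin ligase that removes HIF, was at 41.2 to 53.4 CPM in control, 45.5 to 54.2 with FICZ and 45.4 to 49.5 with tryptamine, and the groups overlapped.

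The 14 enzymes of the glycolytic steps included the 8 most abundant members and, near the low end, Aldoc at rank 31 of the 34 tested. Scaled by transcript length (RPKM, the CPM per kilobase of transcript), Ldha, which turns pyruvate into lactate, had a control level of 1110.1 ± 143.9 RPKM (SD, n = 3). Aldoa, the aldolase, was at 735 ± 70.3 RPKM, Tpi1, triosephosphate isomerase, at 535 ± 68.6 RPKM and Eno1, enolase, at 252 ± 34.0 RPKM (SD, n = 3). On the RPKM scale Ldha, Aldoa, Tpi1, Eno1, Gpi1 and Gapdh stood at percentiles 95.9 to 99.8 of the genes tested. The lowest members, outside the glycolytic steps, were Epas1 at 0.307 ± 0.212 RPKM and Slc16a3, the lactate exporter MCT4, at 0.131 ± 0.0237 RPKM (SD, n = 3). Several of these enzymes (Gapdh, Ldha, Eno1, Tpi1, Pgk1, Aldoa and Pgam1) have processed pseudogenes with near-identical sequence, and how shared reads were counted is not known, so their levels are uncertain.

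**Figure D3:**
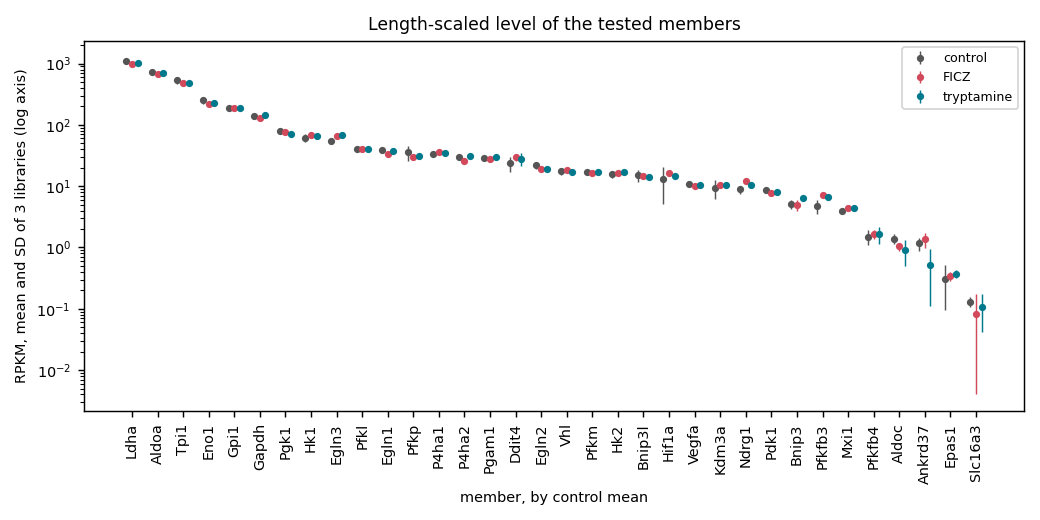
Length-scaled level (RPKM, log axis) of the 34 tested members in order of the control mean, as the mean and SD of 3 libraries for control (grey), FICZ (red) and tryptamine (teal). Levels run from 1110.1 RPKM for Ldha to 0.131 RPKM for Slc16a3, and the order of the members is much the same in the 3 groups.

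Against control, 10 of the 14 glycolytic enzymes had a log2 change below 0 with FICZ and 4 above, with a median of -0.11 and a range of -0.42 to 0.17. With tryptamine, 9 were below 0 and 5 above, with a median of -0.06. Without control replicate 3 the medians were -0.04 and -0.01. That library was the highest of all 9 for Pgk1, Ldha, Aldoa, Aldoc, Eno1, Pfkp, Pfkm, Tpi1 and Pgam1, and the lowest for Hk1 and Hk2, the hexokinases.

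Ldha (gene ID 16828) was at 1629, 1708 and 2068 CPM in control, 1695, 1659 and 1460.3 with FICZ, and 1642, 1764 and 1517 with tryptamine. The groups overlapped, with log2 changes of -0.17 ± 0.108 (SE, adjusted p = 0.604) and -0.13 ± 0.108 (SE, adjusted p = 0.737), which were -0.06 and -0.03 without control replicate 3. For Pgk1 (gene ID 18655), phosphoglycerate kinase, the values were 139.7, 134 and 160.2 CPM in control, 149.7, 130.4 and 126 with FICZ, and 129, 138 and 121 with tryptamine. These groups overlapped as well, with log2 changes of -0.09 (95% interval -0.33 to 0.15) and -0.16 (-0.40 to 0.08), which were -0.02 and -0.09 without control replicate 3.

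Aldoc (gene ID 11676), the brain-type aldolase, was the one glycolytic enzyme whose FICZ and control libraries did not overlap. Its level was low, at 3.51, 3.43 and 4.76 CPM in control, 2.48, 3.33 and 2.86 with FICZ, and 2.24, 3.85 and 1.61 with tryptamine. The highest FICZ library nearly met the lowest control, and 1 tryptamine library was above 2 of the controls. FICZ gave a log2 change of -0.42 ± 0.319 (SE, adjusted p = 0.620), tryptamine one of -0.61 ± 0.324 (SE, adjusted p = 0.737). Control replicate 3 was the highest of the 9 libraries, and without it these were -0.26 (adjusted p = 0.860) and -0.45 (adjusted p = 0.885). The remaining glycolytic enzymes overlapped between each pair of groups, and their control means ran from 50.0 CPM for Pfkm, a phosphofructokinase, to 1109.9 CPM for Aldoa.

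The smallest p among the members with FICZ was that of Pfkfb3, a gene that controls glycolytic flux (unadjusted p = 0.00398). Pfkfb3 (gene ID 170768) makes fructose 2,6-bisphosphate, which activates phosphofructokinase, and is a known HIF target. Its CPM was 29.3, 26.2 and 17.5 in control, 36.4, 37.7 and 36.6 with FICZ, and 33.2, 34.8 and 34.4 with tryptamine. The 3 groups did not overlap: FICZ was highest, tryptamine between, and control lowest. The log2 change with FICZ was 0.60 ± 0.164 (SE, 95% interval 0.24 to 0.96, 1.51-fold, adjusted p = 0.573), and with tryptamine 0.48 ± 0.164 (SE, 0.12 to 0.85, 1.40-fold, adjusted p = 0.737). Between FICZ and tryptamine it was 0.11 (-0.24 to 0.47).

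Control replicate 3 was the lowest of the 9 libraries for Pfkfb3, in all 24 of its transcripts with at least 90 counts. It was at 0.120 to 0.650 times the mean of the other controls. Several of these transcripts had the same counts, so they are not 24 separate measurements. Without control replicate 3 the change was 0.41 (95% interval 0.19 to 0.63, adjusted p = 0.0763) with FICZ and 0.30 (0.07 to 0.52, adjusted p = 0.660) with tryptamine. With limma's voom and library weights Pfkfb3 rose with FICZ by log2 0.43 (adjusted p = 0.0373).

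Pdk1 (gene ID 228026), the kinase that shuts pyruvate out of the mitochondrial citrate cycle, lay a little below control with both compounds. It was at 45.0, 45.6 and 43.0 CPM in control, 42.0, 41.1 and 35.6 with FICZ, and 41.5, 41.3 and 42.9 with tryptamine. Neither treated group overlapped control, though the nearest libraries nearly met. Its log2 change was -0.17 (95% interval -0.40 to 0.06, adjusted p = 0.604) and -0.09 (-0.32 to 0.14, adjusted p = 0.769). Pfkfb4, a relative of Pfkfb3, was at 3.86 to 7.33 CPM over all libraries, and Slc16a3 had 60 counts in all, too few to place its change more closely than -2.34 to 1.02 with FICZ.

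In the group of mitophagy and growth control, Ndrg1 and Ddit4 had the largest log2 changes with FICZ. Ndrg1 (gene ID 17988), a stress-responsive gene long used as a hypoxia marker, was at 21.1, 27.7 and 28.1 CPM in control, 37.6, 32.6 and 33.8 with FICZ, and 33.3, 29.3 and 27.7 with tryptamine. FICZ lay above every control, and tryptamine overlapped both. The log2 change was 0.44 ± 0.141 (SE, 95% interval 0.13 to 0.75, 1.35-fold, adjusted p = 0.601) with FICZ and 0.23 (-0.08 to 0.54, adjusted p = 0.737) with tryptamine. Without control replicate 3 the FICZ change was 0.51 (0.24 to 0.77, adjusted p = 0.0614), and with limma's voom and library weights Ndrg1 rose by log2 0.50 (adjusted p = 0.0461).

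Ddit4 (gene ID 74747), an inhibitor of mTOR signalling also called REDD1, was at 31.5, 36.0 and 52.4 CPM in control, 55.0, 51.5 and 42.9 with FICZ, and 44.7, 60.2 and 36.8 with tryptamine. The groups overlapped through control replicate 3 alone, since both other controls lay below all 6 treated libraries. With all libraries the log2 change was 0.32 (95% interval -0.16 to 0.80, adjusted p = 0.606) with FICZ and 0.24 (-0.23 to 0.72, adjusted p = 0.738) with tryptamine. Without that library these became 0.56 (0.26 to 0.86, adjusted p = 0.0708) and 0.48 (0.18 to 0.78, adjusted p = 0.443). Ddit4 rose with FICZ under limma's voom with library weights, by log2 0.56 (adjusted p = 0.0409).

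Mxi1 (gene ID 17859), an antagonist of Myc, was at 22.1, 20.7 and 18.7 CPM in control, 23.1, 22.9 and 23.1 with FICZ, and 25.0, 22.2 and 21.7 with tryptamine. FICZ was above control without overlap and tryptamine overlapped it, with a log2 change for FICZ of 0.16 (95% interval -0.10 to 0.42, adjusted p = 0.615), or 0.10 (adjusted p = 0.848) without control replicate 3. Bnip3 (gene ID 12176), a mitophagy receptor, was at 8.03, 10.8 and 8.34 CPM in control, 7.67, 7.61 and 10.6 with FICZ, and 12.4, 10.6 and 10.8 with tryptamine. FICZ and tryptamine differed by log2 -0.38 (-0.80 to 0.03), and all groups overlapped. Bnip3l, its relative, was at 41.2 to 61.8 CPM over all libraries.

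Of the secreted and matrix members, Vegfa (gene ID 22339) was at 38.7, 39.3 and 35.5 CPM in control, 33.3, 35.3 and 38.5 with FICZ, and 38.4, 36.5 and 35.1 with tryptamine. The groups overlapped, and the log2 change was -0.08 (95% interval -0.32 to 0.15, adjusted p = 0.746) with FICZ and -0.05 (-0.28 to 0.19, adjusted p = 0.878) with tryptamine. Once control replicate 3 was left out, all 6 treated libraries lay below both controls, and the changes were -0.13 (-0.34 to 0.09, adjusted p = 0.749) and -0.09 (-0.31 to 0.12, adjusted p = 0.960). P4ha2 (gene ID 18452), a subunit of the collagen prolyl hydroxylase, was at 69.2, 75.8 and 61.2 CPM in control, 60.8, 64.9 and 53.0 with FICZ, and 73.2, 67.9 and 70.2 with tryptamine. FICZ lay below every tryptamine library and overlapped control. The log2 difference of FICZ from tryptamine was -0.24 ± 0.117 (SE, adjusted p = 1.00), and of FICZ from control -0.21 (adjusted p = 0.604) or, without control replicate 3, -0.28 (adjusted p = 0.233). P4ha1, its relative, was at 123 to 147 CPM over all libraries.

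Adm, the vasodilator peptide adrenomedullin, had 2 counts in all, both in FICZ replicate 3. Car9, the membrane carbonic anhydrase used as a hypoxia marker, had 5 counts, 1 in control replicate 2 and 4 in tryptamine replicate 1. For Adm, 0 counts in control and tryptamine allow up to 3 counts of the group totals, which is 0.0731 and 0.0692 CPM, and for Car9 the 0 counts with FICZ allow up to 0.0657 CPM, by counting error only. No change can be given for either gene at this depth.

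Ankrd37 (gene ID 654824), an ankyrin repeat protein induced by HIF, had the smallest p between the compounds, at a low level. It was at 1.22, 0.755 and 1.19 CPM in control, 1.49, 0.832 and 1.36 with FICZ, and 0.882, 0.154 and 0.386 with tryptamine, from 119 counts in all. The log2 difference of FICZ from tryptamine was 1.33 (95% interval 0.15 to 2.51, adjusted p = 1.00), and that of tryptamine from control was -1.11 (-2.32 to 0.10, adjusted p = 0.737), with overlap in both. The doses of the compounds differ, so this comparison sets them side by side as used. Kdm3a, a histone demethylase, was at 29.8 to 59.3 CPM, where both extremes were control libraries.

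The authors' deposited tables test each transcript and not each gene, and they hold 411 transcripts of the members. In the authors' deposited table for FICZ over control, 19 of the 401 with an adjusted p were called higher at an adjusted p under 0.05, all of Pfkfb3 and Ndrg1, where 2.38% of all transcripts were. A further 8 were called lower (Eno1, Hk2, Ldha, Pdk1, Pfkp and Tpi1), where 3.23% of all were. Transcripts of a gene are not separate measurements, since several Pfkfb3 transcripts had the same counts in all 9 libraries. The 19 stand for 2 genes and the 8 for 6. Control replicate 3 was the lowest of the 9 libraries in all 19 and the highest in all 8. The authors' deposited table also called 2 single-exon transcripts of the Hif1a/Gm5068 locus lower, with log2 fold changes of -0.43 and -0.51, and control replicate 3 was the highest there as well, at 2.13 and 2.36 times the mean of the other controls. Over all transcripts in the authors' deposited table, it was the lowest in 96.9% of the 3121 called higher and the highest in 94.6% of the 4224 called lower, beside 35.5% and 24.0% of all transcripts with an adjusted p. Part of that gap follows from the choice of transcripts. Those called higher than control tend to have a control library as the lowest, and those called lower one as the highest. The same limit holds for the member transcripts. The authors' deposited table for tryptamine over control called 0 member transcripts higher (0.393% of all) and 1 lower, of Pfkp (1.05% of all), and again control replicate 3 was the highest. It also called 1 transcript of the Hif1a/Gm5068 locus lower, with a log2 fold change of -0.59 in the authors' deposited table, the one with a FICZ value of -0.43.

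**Figure D4:**
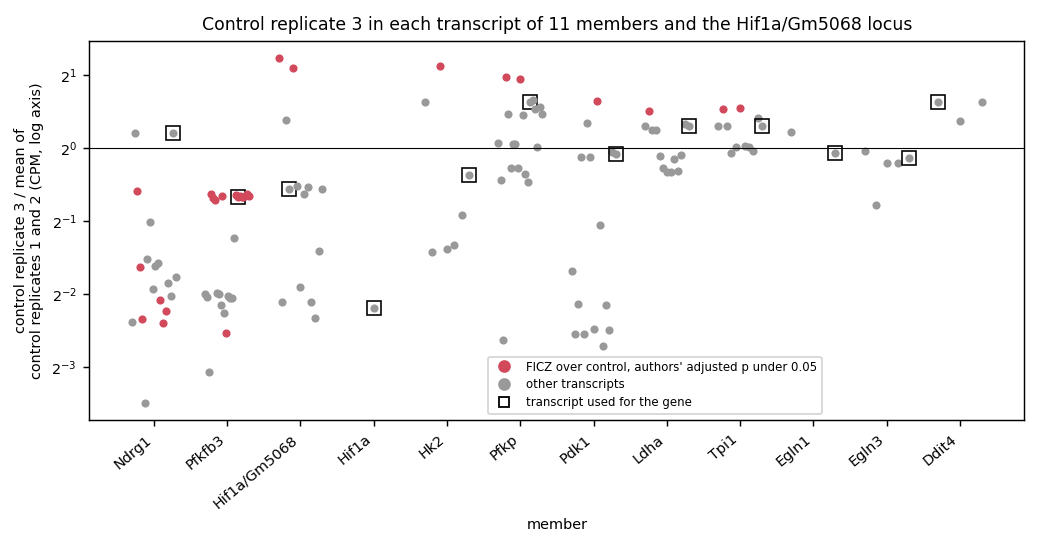
CPM of control replicate 3 over the mean of control replicates 1 and 2 (log axis), by transcript, for 11 members and the Hif1a/Gm5068 locus. Transcripts with at least 90 counts and a ratio above 0 are drawn, which leaves out the lowest ratio of Hk2, at 0. Red marks transcripts that the authors' deposited table calls changed with FICZ, and squares mark the transcript used for the gene. Red points lie below 1 for Ndrg1 and Pfkfb3 and above 1 for the other genes that have any, and the transcripts of one gene spread over several fold.

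Within a gene, transcripts differed in how far control replicate 3 departed. For Ndrg1 the ratio of that library to the mean of the other controls ran from 0.0891 to 1.15 over 18 transcripts, and it was the lowest of the 9 libraries in 16. The transcript used here, of 2890 nt and 16 exons, had a log2 difference of 0.20 from the other controls. A transcript of 583 nt with 8 exons, by contrast, had 46, 70 and 11 counts in control, 112, 93 and 86 with FICZ, and 80, 65 and 84 with tryptamine. The authors' deposited table gives that one a log2 fold change of 1.11 and an adjusted p of 0.0294. Ndrg1 was the 1 member among 81 genes in the authors' deposited list of genes higher with FICZ, with 4 of 18 transcripts and a mean log2 fold change of 1.081, and 0 members were among the 22 genes of the tryptamine list. Those mean values sit beside a log2 change of 0.44 for the most abundant Ndrg1 transcript in the fit used here.

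A further list of 60 HIF cofactors, glucose transporters, glycolytic isozymes and other HIF targets was read in the same way. Of these 53 were found and 38 tested, and 0 passed in any comparison by edgeR, DESeq2's Wald test or limma's voom with library weights. With edgeR at an unadjusted p under 0.05, 4 were higher with FICZ (against 3.53% of all genes) and 5 lower (against 4.65%). With tryptamine 1 was higher (against 2.19%) and 3 lower (against 2.93%), and between the compounds 0 were higher (against 0.705%) and 0 lower (against 1.02%). Igfbp3, an IGF-binding protein, was lower with FICZ by log2 -0.40 (adjusted p = 0.576), Insig2, a regulator of sterol synthesis, differed by 0.31 (adjusted p = 0.601) and Eno3, an enolase, by -0.35 (adjusted p = 0.601), or by -0.17 (adjusted p = 0.260) without control replicate 3.

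With tryptamine, the smallest p in the further list belonged to Pfkfb1, the liver relative of Pfkfb3 (log2 -0.80), Ero1l, an oxidase of the endoplasmic reticulum (0.45), Pgm2, a phosphoglucomutase (-0.25), and Eno3 (-0.29), each with an adjusted p of 0.737. In the fit without control replicate 3, Ero1l was at 0.28 and Eno3 at -0.11. Slc2a1, the glucose transporter GLUT and a classic HIF target, was at 134 to 156 CPM in control, 155 to 174 with FICZ and 146 to 177 with tryptamine, and its groups overlapped. The median log2 change of the 38 genes was 0.01 with FICZ, 0.06 with tryptamine (0.00 without control replicate 3) and -0.01 between them.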

How the data were processed

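Total RNA was sequenced in 9 libraries, 3 per group. Per the file headers, the deposited tables give whole-number counts of reads for 189660 transcripts in each library. They also hold the authors' p-values, adjusted p-values and log2 fold changes. Normalized expression columns, deposited by the authors as a score without a stated unit, were used for no result. Per the submitters' processing notes DESeq was used, with no version named. What aligned and counted the reads, on which build, annotation and strand, is not given in the sources used here. Without strand, reads of a gene and its antisense partner cannot be told apart.

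For each gene the transcript with the highest mean count was used. Transcripts lacking a gene ID (22128, with 0.67 to 0.79% of counts) were left out. Entries naming several loci were kept as 589 features of their own, among them Hif1a/Gm5068. One edgeR 4.0.16 fit under R 4.3.3 covered all 9 libraries. It used the quasi-likelihood test, with group as its single term, after filterByExpr and TMM scaling. P-values were adjusted by Benjamini-Hochberg over 12334 genes, and calls use an adjusted p under 0.05. SE and 95% intervals come from this fit. CPM uses effective library sizes, RPKM also the transcript length, and SD is over 3 libraries. Alternatives used DESeq2 1.42.0, limma 3.58.1 and other settings, 17 in all. The edgeR fit was also run on simulated counts with the smaller spread of the fit without control replicate 3 and no outlying library. That run does not check the fit under the spread of all 9 libraries.

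The members and gene lists were chosen with earlier results of these data known. All 36 members are described, with values per library for the HIF subunits, Vegfa, Ldha, Pgk1, Arnt, Cyp1a1, members without overlap and up to 4 with the smallest p in each comparison. Ddit4, Slc2a1, Vhl and others named by a range were described after their values were seen. Some genes that the lists hold are not reported here. Whether equal replicate numbers mark related libraries is not settled, and the main fit used no pairing. The searched windows are the 250 bases before RefSeq's start sites on GRCm38.p6, and not every window lies upstream of the whole gene.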

Additional observations from a re-analysis of the deposited data

How the results depend on the processing

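Over the 17 alternatives, the number of members called was 0 in every comparison, with 1 exception: limma's voom with library weights called 3 with FICZ (Pfkfb3, Ndrg1 and Ddit4). Each fit that left out 1 library called 0 members. With the replicate number as a block, 0 members were called in each comparison and the FICZ calls over all genes went from 14 to 4. Deviations of libraries with the same number correlated at -0.062 to 0.116 over 9 pairs, and at -0.127 to 0.106 over the 18 other pairs. Control replicate 3 dominated the control deviations, correlating at -0.81 and -0.795 with the other controls. Between FICZ and tryptamine, pairs with the same number were at 0.054, 0.042 and 0.116, and the others at -0.127 to 0.086. Whether the numbers mark a pairing is not settled by these values. Over all genes, FICZ against control gave 14 calls, 50 with DESeq2's Wald test, 114 with limma's voom, 26 without a filter, 2 when only the 6 libraries compared were fitted, 4 with counts summed over transcripts, 5 without control replicate 1, 8 without control replicate 2, 102 without control replicate 3, 4 without any 1 of the FICZ replicates, 6 without tryptamine replicate 1 and 7 without tryptamine replicate 3. Tryptamine gave 1 call, 7 with DESeq2, 19 with limma's voom, 2 without a filter, 2 with summed counts and 25 without control replicate 3. FICZ against tryptamine gave 0 calls, 7 with DESeq2, 18 with limma's voom, 17 when only its 6 libraries were fitted and 17 without control replicate 3. The cause was not tested. The log2 change of a member took the other sign in 29 of 576 refits with FICZ, 36 of 576 with tryptamine and 50 of 576 between them. The FICZ change of Pfkfb3 ran from 0.41 to 0.74 (adjusted p 0.0373 to 0.834), of Ndrg1 from 0.30 to 0.69 (0.0461 to 0.834), of Ddit4 from 0.16 to 0.56 (0.0409 to 0.834) and of Egln1 from -0.24 to -0.19 (0.139 to 0.834). Low counts mark Epas1, Ankrd37, Aldoc, Pfkfb4 and Slc16a3 among the members with wide intervals; Hif1a, Pfkp, Pfkfb3, Ndrg1, Ddit4 and Kdm3a, with more counts, also had intervals beyond 0.5 of 0 in both comparisons with control.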
